A study of Mus musculus with 6 samples.

Results

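A set of 7 secreted or secretion-linked defence genes of the uterine epithelium was examined: Ltf, Lcn2, C3, Slpi, Clca3, Pigr and Wfdc2. They were taken by name from the gene symbol or synonym given for each probe of a mouse Illumina bead chip. The 7 genes had 9 probes among 45281, and all 7 entered a comparison of 11940 genes. Another 2 probes carry "C3" only as an old synonym of the olfactory receptor gene Olfr48. One of these was at background on all 6 arrays and the other was above it on 1 array, so they were described as Olfr48 and not as complement C3. The RefSeq gene table now lists Clca3 under the symbol Clca1, and the older name is kept here.

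The samples were RNA of luminal uterine epithelium taken at 3.5 days post coitum (dpc) from mice of mixed C57BL/6J and 129S5/SvEvBrd descent, with 3 arrays per group. The CKO group (arrays D, E and F) was Alk3 flox/flox Pgr cre/+, in which Cre knocked into the progesterone receptor locus recombines a floxed stretch spanning exon 2 of Alk3, the BMP receptor gene also called Bmpr1a. The Control group (arrays A, B and C) is labelled only as control, so its floxed and Cre alleles are not given, nor is the age of the mice. The Cre allele acts wherever Pgr is expressed, which includes uterine cells other than luminal epithelium. Whether the 3 arrays of a group came from different mice is not stated, so the tests reflect only the spread among the samples as deposited, which may be technical. The sample titles letter the Control samples A to C and the CKO samples D to F. If these letters are positions on the chip, position and genotype cannot be told apart.

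Estrogen acting through its receptor ESR1 makes the uterine epithelium proliferate and secrete, and the secretions include iron-binding, protease-inhibiting and complement proteins that protect the mucosa. Lactoferrin and complement C3 are classical products of the estrogen-treated mouse uterus. Progesterone opposes much of this programme before implantation, when the luminal epithelium becomes receptive to the blastocyst. The comparison asked whether these estrogen-marker genes moved together in CKO against Control.

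No common direction was seen. By limma's adjusted p over all 11940 genes, 0 of the 7 members passed in either direction, where 2 genes (0.0168%) were called higher and 0 (0%) lower. The 2 called genes, Cops8 and Gin1, are not related to the set and are named only because the count is small. At an unadjusted p under 0.05 by the same fit, 1 of 7 members (Ltf) and 563 genes (4.72%) lay below the threshold. That count depends on single arrays: the unadjusted limma p of Ltf was 0.055 to 0.094 without B, C, D or E and 0.077 with the mean of its probes, while that of Clca3 was 0.011 without A and that of Slpi 0.029 without D. In CKO 3 members were higher (Lcn2, Pigr and C3) and 4 lower (Ltf, Slpi, Clca3 and Wfdc2). Their median log2 difference was -0.027, beside -0.011 for all genes. The members were nevertheless spread widely: the median size of a difference, without its sign, was 0.75 for the members and 0.18 for all genes, and the median range over the 6 arrays was 2.12 and 0.81 log2 units. Differences are CKO minus Control on the normalised log2 scale, to which an offset was added that makes differences of dim probes smaller.

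**Figure D1:**
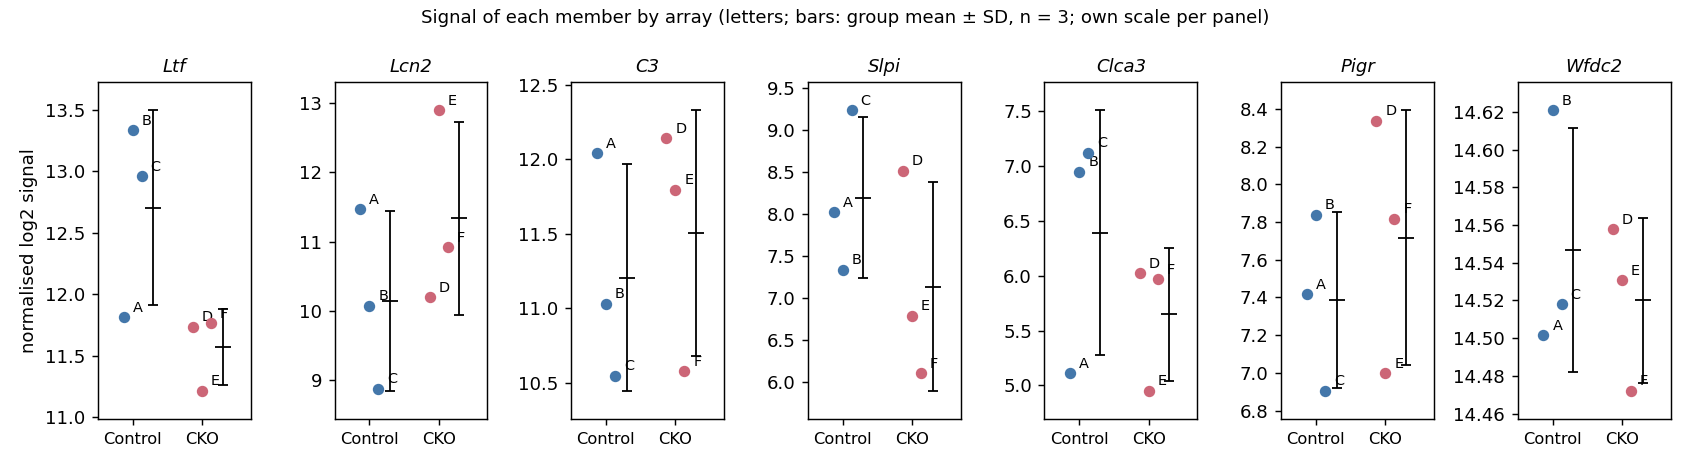
Normalised log2 signal (vertical axis, own scale per panel) of each of the 7 members on Control arrays A, B and C and CKO arrays D, E and F; bars show the group mean and SD of 3 arrays. The groups are separate for Ltf, by a narrow gap between CKO F and Control A, and overlap for the other 6 members; the Wfdc2 panel spans only 0.15 log2 units.

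The genes of the iron-handling proteins differed in opposite directions, neither past the test. Ltf encodes lactoferrin, an iron-binding milk and mucosal protein, and Lcn2 encodes lipocalin 2, which captures the iron-carrying siderophores of bacteria. Normalised log2 signals of Ltf were 11.81, 13.34 and 12.96 on Control arrays A, B and C and 11.74, 11.21 and 11.77 on CKO arrays D, E and F. All 3 CKO values lay below all 3 Control values, but the gap between the highest CKO value (F) and the lowest Control value (A) was 0.047, so Control A resembled CKO in this gene. Among all genes tested, CKO lay wholly below Control in 5.01% and wholly above in 5.64%. The group means were 12.70 ± 0.79 (SD, n = 3) in Control and 11.57 ± 0.31 (SD, n = 3) in CKO. The log2 difference was -1.13 (SE 0.41, 95% confidence interval -2.11 to -0.15), a CKO level 0.457 times that of Control, with a limma adjusted p of 0.976. The exact two-sided permutation p was 0.1, the smallest that 3 against 3 arrays allow. Ltf ranked 325 of 11940 by p-value.

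The separation of Ltf did not depend on a single array in direction: with each array left out in turn the difference ran from -1.57 (without A) to -0.81 (without B). The other Ltf probe was dim and above background on 4 of 6 arrays. It gave 5.67 ± 0.93 (SD, n = 3) in Control and 5.20 ± 0.49 (SD, n = 3) in CKO, a difference of -0.47 with groups that overlapped. With the mean of both probes the difference was -0.80.

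Lcn2 had the widest range of the 7 members. Its log2 signals were 11.47, 10.07 and 8.87 on A, B and C and 10.20, 12.90 and 10.92 on D, E and F. Both groups held high and low arrays: Control A was above CKO D and F, Control C was the lowest and CKO E the highest. The raw signal ran from 515 on C to 7543 on E, a ratio of 14.6, while the bead-to-bead standard error of this probe was 3.27 to 5.21% of its signal. The mean was 10.14 ± 1.30 (SD, n = 3) in Control and 11.34 ± 1.40 (SD, n = 3) in CKO. The difference of 1.199 (SE 0.87, 95% confidence interval -0.88 to 3.28) did not pass, with a limma adjusted p of 0.976 and an exact permutation p of 0.4. It fell to 0.42 without E, the array least like the others, and to 0.56 without C, and was 1.87 without A.

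For these members and C3, the RefSeq promoter windows are shown because the 3 genes are known estrogen or acute-phase targets that did not share a profile here. Each is the 250 bases before the annotated start in GRCm38.p6, read 5′ to 3′ on the gene's strand. Capitals mark AGGTCA, the nuclear receptor half-site, searched on both strands.
Ltf (chr9:111019042-111019291, plus strand): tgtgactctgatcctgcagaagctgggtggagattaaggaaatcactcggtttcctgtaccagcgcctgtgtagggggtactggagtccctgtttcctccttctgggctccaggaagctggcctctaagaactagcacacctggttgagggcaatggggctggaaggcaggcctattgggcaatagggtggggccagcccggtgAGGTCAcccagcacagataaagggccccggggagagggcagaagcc
Lcn2 (chr2:32387740-32387989, minus strand): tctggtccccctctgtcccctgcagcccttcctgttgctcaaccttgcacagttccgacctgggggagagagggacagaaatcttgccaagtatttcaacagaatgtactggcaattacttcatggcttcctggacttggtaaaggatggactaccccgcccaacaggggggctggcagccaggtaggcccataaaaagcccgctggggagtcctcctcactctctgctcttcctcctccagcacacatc
C3 (chr17:57228137-57228386, minus strand): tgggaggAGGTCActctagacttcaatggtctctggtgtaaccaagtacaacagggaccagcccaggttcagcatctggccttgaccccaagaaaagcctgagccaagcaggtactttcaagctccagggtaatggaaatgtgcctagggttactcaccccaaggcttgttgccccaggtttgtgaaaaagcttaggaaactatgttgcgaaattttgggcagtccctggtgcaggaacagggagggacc
Counting back from the start, whose preceding base is -1, the half-site lay at -46 to -41 in Ltf and at -243 to -238 in C3, and was not in the Lcn2 window. The half-site was in 14.0% of 32851 such windows, so its presence is common. The palindromic estrogen response element GGTCANNNTGACC was in 0.0639% of windows and in none of the members' windows. TTGCNNAA, a C/EBP-type motif searched on both strands, was in 9.56% of windows and in those of Ltf (-75 to -68), Lcn2 (-216 to -209), C3 (-45 to -38) and Slpi (-241 to -234). The NF-kB consensus, in 7.25% of windows, and TATAAA on the gene's strand, in 7.59%, had no match in the members' windows. Pigr matched none of these motifs. Wfdc2 has a pair of start entries 1 base apart, and only the second window held AGGTCA, at -6 to -1. A match is a description of letters and was not related to binding here.

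**Figure D2:**
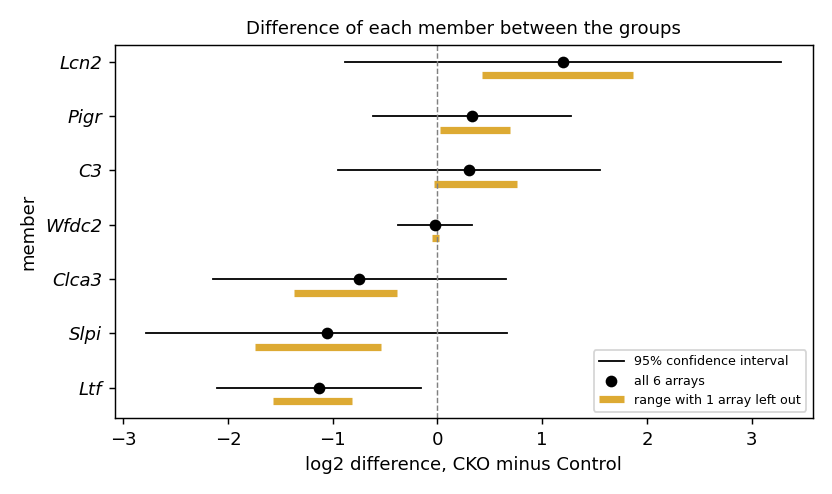
Log2 difference (horizontal axis, CKO minus Control) of each member (vertical axis) with its 95% confidence interval, and below it the range of the difference when each of the 6 arrays was left out in turn. The interval of Ltf, -2.11 to -0.15, lies below 0 and those of the other 6 members include 0; the left-out range crosses 0 for C3 and Wfdc2.

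Complement C3, the central component of the complement cascade, showed no group difference beyond its spread. Its log2 signals were 12.04, 11.03 and 10.55 on A, B and C and 12.14, 11.80 and 10.58 on D, E and F. Each group held 1 array near 10.6 and 1 near 12, so the groups overlapped almost fully. The difference was 0.30 (SE 0.52, 95% confidence interval -0.95 to 1.55; limma adjusted p 0.977, exact permutation p 0.7). It turned to -0.030 without C, to -0.017 without D and to -0.24 with array weights.

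The whey acidic protein (WAP) domain proteins Slpi and Wfdc2 behaved differently from each other. Slpi, secretory leukocyte protease inhibitor, blocks neutrophil elastase and has antimicrobial activity. Its log2 signals were 8.02, 7.33 and 9.23 on A, B and C and 8.51, 6.79 and 6.10 on D, E and F. CKO E and F were the lowest arrays, but CKO D exceeded Control A and B. The mean was 8.19 ± 0.96 (SD, n = 3) in Control and 7.13 ± 1.24 (SD, n = 3) in CKO, a difference of -1.06 (SE 0.72, 95% confidence interval -2.78 to 0.66; limma adjusted p 0.976, exact permutation p 0.3). The difference was -1.74 without D and -0.54 without C or without F.

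Wfdc2, a small secreted WAP protein also known as HE4, was nearly constant. Its log2 signals were 14.50, 14.62 and 14.52 on A, B and C and 14.56, 14.53 and 14.47 on D, E and F. The difference was -0.027 (SE 0.15, 95% confidence interval -0.38 to 0.33; limma adjusted p 0.985, exact permutation p 0.7), and its sign turned without B (0.010) and with cyclic loess (0.041). This probe gave raw signals of 21695 to 25840, where the brightest probe of each array gave 29392 to 33910, so it lay near the top of the scale. A bright probe can compress differences, and its part in the narrow range of Wfdc2 was not tested.

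Clca3, also known as gob-5, is a secreted mucus-associated protein of goblet-type cells named for a link to calcium-activated chloride conductance. Its log2 signals were 5.11, 6.95 and 7.12 on A, B and C and 6.02, 4.95 and 5.97 on D, E and F. Control A and CKO E were not above background, whereas the other 4 arrays were, so the gene was measured on 2 arrays of each group. The mean was 6.39 ± 1.11 (SD, n = 3) in Control and 5.65 ± 0.60 (SD, n = 3) in CKO, a difference of -0.75 (SE 0.59, 95% confidence interval -2.15 to 0.66; limma adjusted p 0.976, exact permutation p 0.3). It was -1.37 without A, -0.47 without B, -0.38 without C and -0.40 without E. The other probe, above background on B, C and F only, gave -0.98 and overlapped between groups as well.

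Pigr, the receptor that carries polymeric immunoglobulin across the epithelium into the lumen, had log2 signals of 7.42, 7.84 and 6.90 on A, B and C and 8.34, 6.998 and 7.82 on D, E and F. CKO D was the highest array and CKO E the next to lowest, above Control C. The difference was 0.33 (SE 0.40, 95% confidence interval -0.62 to 1.28; limma adjusted p 0.977, exact permutation p 0.5). It was 0.56 without B and 0.69 without E, but 0.088 without C and 0.021 without D.

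**Figure D3:**
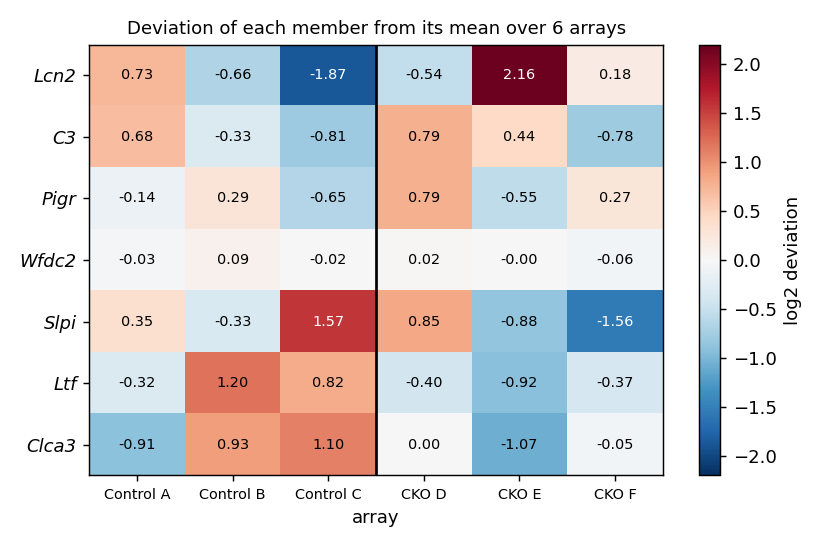
Log2 deviation (colour and printed value) of each member (rows) from its own mean over the 6 arrays (columns; a line separates Control from CKO). Lcn2 is highest on CKO E (2.16) and lowest on Control C (-1.87), while Clca3 is highest on C (1.10) and not above background on A and E, where its printed deviations have no resolved order.

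Across arrays the members formed no single block. The mean deviation of the 7 members was 0.053, 0.17 and 0.021 on A, B and C and 0.22, -0.12 and -0.34 on D, E and F. No array was high or low for the whole set: on CKO E, Lcn2 and C3 lay above their own means and the other 5 members at or below theirs, and on Control C, Slpi, Clca3 and Ltf lay above while Lcn2, C3, Pigr and Wfdc2 lay below. Over the 21 pairs of members, Pearson's r was above 0 in 12 and below 0 in 9, with a median of 0.14 and a range of -0.92 to 0.90. For all pairs of the genes tested the median r was 0.011 and 50.7% were above 0. Of the member pairs 57.1% were above 0. Arrays of both groups enter these correlations, and arrays share one chip. With each group centred on its own mean, the median r was 0.19 and 14 pairs were above 0.

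The strongest pair ran in opposite directions. Lcn2 and Clca3 had r = -0.92 and Spearman's rho = -1 over 6 arrays, with an exact permutation p of 0.0028 for each, the smallest that 6 arrays allow, and 0.058 after Benjamini-Hochberg adjustment over the 21 pairs. The order of the arrays from low to high was C, B, D, F, A and E for Lcn2 and the exact reverse for Clca3, although Clca3 was not above background on A and E, so the order of those arrays is not resolved. Without C and E, the arrays farthest from the median of Lcn2, r was -0.88, and within groups it was -0.89. Ltf and Clca3 varied together, with r = 0.90 (exact permutation p 0.033, adjusted 0.35) and rho = 0.71 (exact permutation p 0.14, adjusted 0.83). That r was 0.95 within groups and 0.58 without B and C. Ltf and Lcn2 had r = -0.78 (exact permutation p 0.067, adjusted 0.47) and rho = -0.71 (exact permutation p 0.14, adjusted 0.83). Without B and C, r of Ltf and Lcn2 was -0.83. These values use the brighter Ltf probe, which was higher on C (12.96) than on E (11.21). The dim Ltf probe had the reverse, 5.12 on C, not above background, and 5.72 on E. The correlations of Ltf therefore rest on 1 probe, and that with Clca3 also on A and E, where Clca3 was not above background.

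Unadjusted exact permutation p-values of Pearson's r were under 0.05 for 2 of the 21 pairs, and after adjustment for 0. C3 sided with Lcn2 (r = 0.52, exact permutation p 0.30, adjusted 0.83) and against Clca3 (r = -0.68, exact permutation p 0.18, adjusted 0.75), but r of C3 and Lcn2 dropped to 0.12 without C and E and so rests on those arrays. Slpi ran against Lcn2 (r = -0.64, exact permutation p 0.17, adjusted 0.75), and that r was -0.15 without C and E. Pigr correlated with no other member beyond 0.31 in size over the 6 arrays. Leaving out E changed the sign of 2 pairs and gave a median r of 0.19 on the remaining 5 arrays, or 0.18 when these were normalised anew without E.

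**Figure D4:**
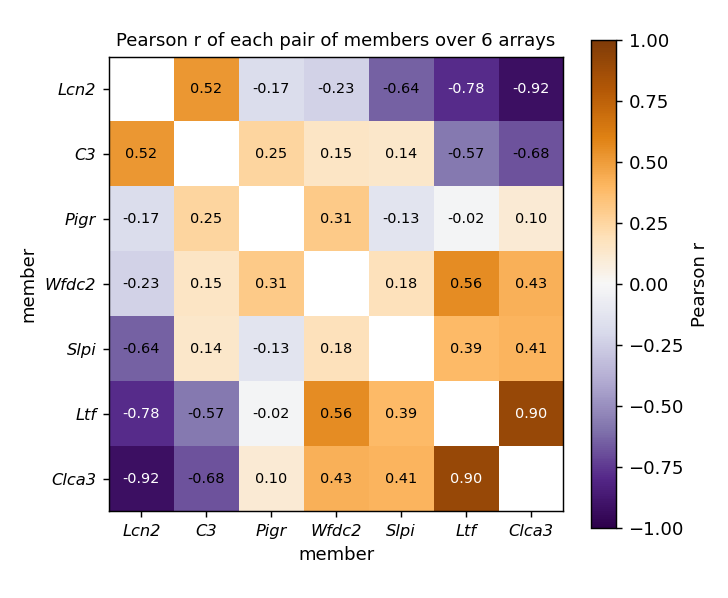
Pearson's r (colour and printed value) over 6 arrays for each of the 21 pairs of members (rows and columns, diagonal left blank). Each member is given by its brightest probe. Ltf and Clca3 stand together at 0.90 and both stand opposite to Lcn2, at -0.78 and -0.92; Pigr lies between -0.17 and 0.31 with every other member.

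Genes with the profile most like that of the 3 widest-ranging members were sought among those above background on all 6 arrays, 8473 for Lcn2 and Slpi and 8474 for Clca3. With 6 arrays and so many genes, high values of r are found for any profile. The closest to Lcn2 were Osmr (r = 0.997), Shisa5 (0.995) and Rps3a1 (0.994). Osmr, a receptor subunit for oncostatin M, had log2 signals of 9.14, 7.43 and 5.31 on A, B and C and 7.60, 11.27 and 8.38 on D, E and F, the same order of arrays as Lcn2. The closest to Slpi were Selenok (0.990), Ahdc1 (0.974) and Xpo7 (0.963). For Clca3 these were Gnptg (0.982), Akap7 (0.979) and Ptges3l (0.978).

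Cell type markers were set beside these profiles. Of 10 pan-epithelial markers 9 were measured, and of 8 luminal markers 6. Epcam, Calb1 and Il1rn were at background on all arrays. Markers of other cells were measured as well, so detection alone does not bear out the epithelial label. By level, the summed normalised signal was 39800 to 51400 for pan-epithelial and 20400 to 22500 for luminal markers. It was 884 to 6070 for stroma and 71.9 to 654 for endothelium, and the highest sum of a list of other cells was 15000 (erythroid, on F). Macrophage and dendritic markers (8 of 12 measured) summed to 6850 to 7660 in Control and 7170 to 7860 in CKO, mostly from Cd14. Sums over different probes are only a rough guide. Ltf and Lcn2 are also neutrophil granule genes. Of 12 neutrophil markers on the array only Csf3r was measured and 8 were below background on all arrays, including S100a8, S100a9, Ngp and Retnlg. The summed normalised signal of that marker was 7.39 to 26.3 in Control and 11.3 to 17.5 in CKO.

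Gland markers were uneven over the arrays. Of 8 such markers 6 were measured, and their summed signal was 720 to 5450 in Control and 1700 to 6100 in CKO, highest on A (5450) and E (6100), the arrays with the most Lcn2 and with Clca3 at background. Spink1 and Prss29 had log2 signals of 12.08 and 8.27 on A and of 11.41 and 10.53 on E, each above the other 4 arrays. The other 4 markers did not share that order. Sox9 was highest on E (10.78) and lowest on C (7.47), with all CKO arrays above Control. Ttr was highest on E (6.52) but not above background on A (4.51). Aldh1a1 was not above background on E (4.74) and A (4.93), so their order is not resolved, and it was highest on C (7.31). Cxcl15 was highest on B (9.15), with 6.93 on A and 6.90 on E. Endothelium markers (6 of 7 measured) also had their highest sum on E, 654 against 71.9 to 257 on the other arrays. Smooth muscle markers (4 of 8 measured) had their highest sums on A (2130) and E (960), against 157 to 622 on the other arrays. This order was that of Acta2 (10.98 on A and 9.61 on E). Smtn, Mylk and Des were highest on E (6.36, 6.57 and 6.04) but not next highest on A (5.38, 6.30 and 5.58). Ciliated epithelium markers (4 of 6 measured) had their highest sums on A (183) and E (153) too, through Tppp3 alone (6.91 and 6.89). Foxj1 was lowest on E (5.20), and Rsph1 was highest on D (5.74), with 5.26 on E. Dnah5 was not above background on A (4.89) or E (4.56) and was highest on C (6.06). Erythroid markers (3 of 6 measured) ran from 2340 on C to 15000 on F, with 9740 on A and 5140 on E. Mesothelium markers (3 of 6 measured) had their highest sum on D, 1350 against 189 to 649 on the other arrays, and stroma markers (7 of 10 measured) were also highest there, 6070 against 884 to 2660. On D, C3 and Pigr had their highest value and Slpi its next to highest. The part of neutrophils, macrophages or of gland, endothelial, smooth muscle, ciliated, erythroid, mesothelial or stromal cells in these values was not tested. In bulk RNA fewer cells of a type and less RNA per cell cannot be told apart.

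Other genes known to be induced by estrogen in this epithelium gave 0 calls. Of 18 listed, 15 were measured; 11 were higher in CKO and 4 lower, where 48.3% of all genes were higher, 0 passed limma's adjusted p, and the median log2 difference was 0.32. Of those higher, Sprr2e, Greb1 and Sprr1a were above background on only 1 Control array each. The groups did not overlap in 2 of the 15, both with CKO above, beside 5.64% of all genes. Padi1, a peptidylarginine deiminase, had log2 signals of 9.02, 9.75 and 6.90 on A, B and C and 10.79, 10.87 and 11.10 on D, E and F, a difference of 2.36 (SE 0.68). The CKO arrays were tightly grouped above a scattered Control, and the difference was 1.54 to 2.96 with single arrays left out, lowest without C. Aqp8, a water channel, was dimmer, at 5.29, 5.84 and 5.001 in Control and 6.13, 7.07 and 6.45 in CKO, a difference of 1.17 (SE 0.32). It was not above background on Control C. Its other probe, above background on only 4 arrays, differed by 1.58. Muc1, a surface mucin, differed by 0.77 (SE 0.33) with groups that overlapped, and its 4 probes gave 0.60 to 0.77.

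Steroid receptors and progesterone targets were mixed. Of 12 receptors and cofactors 6 were measured, with 3 higher, 3 lower and 0 passing. Esr1, the estrogen receptor, had log2 signals of 8.63, 9.23 and 9.09 in Control and 10.01, 8.81 and 9.38 in CKO, a difference of 0.42 (SE 0.34), 0.11 to 0.72 with single arrays left out. Pgr, the progesterone receptor, differed by -0.43 (SE 0.56), and its sign turned without B (0.058) or without E (0.018). Ncoa2, a receptor coactivator, differed by 0.60 (SE 0.35) by a probe above background on 5 arrays. Another Ncoa2 probe, above background on 4 arrays, differed by -0.025. The remaining ones, above background on 1 array or 0, lay between -0.022 and 0.23. Gper1, a membrane estrogen receptor, differed by -1.77 (SE 1.16), which rested on array E at 5.66, since without it the difference was -0.32. Of 13 progesterone-induced genes 11 were measured, with 5 higher, 6 lower and 0 passing. Cited2, a transcriptional coregulator, was lower without overlap (-0.92, SE 0.36) and Ihh, the hedgehog ligand of this epithelium, higher without overlap (1.205, SE 0.48); Areg, an EGF receptor ligand, differed by 1.13 (SE 0.70). Bmpr1a itself had log2 signals of 9.26, 9.35 and 8.97 in Control and 8.86, 8.25 and 8.67 in CKO, a difference of -0.60 (SE 0.22) that did not pass. Its other probe, also above background on all 6 arrays, differed by -0.51. Whether either Bmpr1a probe lies in the deleted stretch is not known here.

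Among other WAP domain genes and serine protease inhibitors, the 2 genes with the smallest p, Wfdc15b and Wfdc18, lay lower in CKO, as Slpi did. They did not pass the test. Of 16 listed, 9 were measured, with 4 higher, 5 lower, 0 passing and a median log2 difference of -0.12. Wfdc15b had log2 signals of 9.30, 9.86 and 11.40 on A, B and C and 8.21, 8.64 and 7.72 on D, E and F, a difference of -1.996 (SE 0.55). Every CKO array lay below every Control array, and the other probe, above background on all arrays, differed by -1.78. Wfdc18 had 8.73, 8.29 and 9.03 in Control and 8.18, 6.41 and 6.47 in CKO, a difference of -1.66 (SE 0.50), again without overlap although CKO D lay close to Control B. CKO lay wholly below Control in 2 of these 9 genes, beside 5.01% of all genes. With single arrays left out Wfdc15b ran from -2.44 to -1.39 and Wfdc18 from -2.24 to -1.37. Serpina3n, an inhibitor of serine proteases, had 5.08, 4.73 and 4.46 in Control, all below background, and 5.14, 6.58 and 5.04 in CKO, so the groups overlapped and it was tested only through its CKO arrays. It was at least 1.41-fold higher in CKO over all arrays, a bound that rests on E: without E the CKO mean (5.09) did not exceed the Control bound (5.09). Wfdc15b, Slpi and Wfdc2 lie in this order within the WAP gene cluster of chromosome 2 by the RefSeq table, with 6 protein-coding genes between Wfdc15b and Slpi and 7 between Slpi and Wfdc2.

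**Figure D5:**
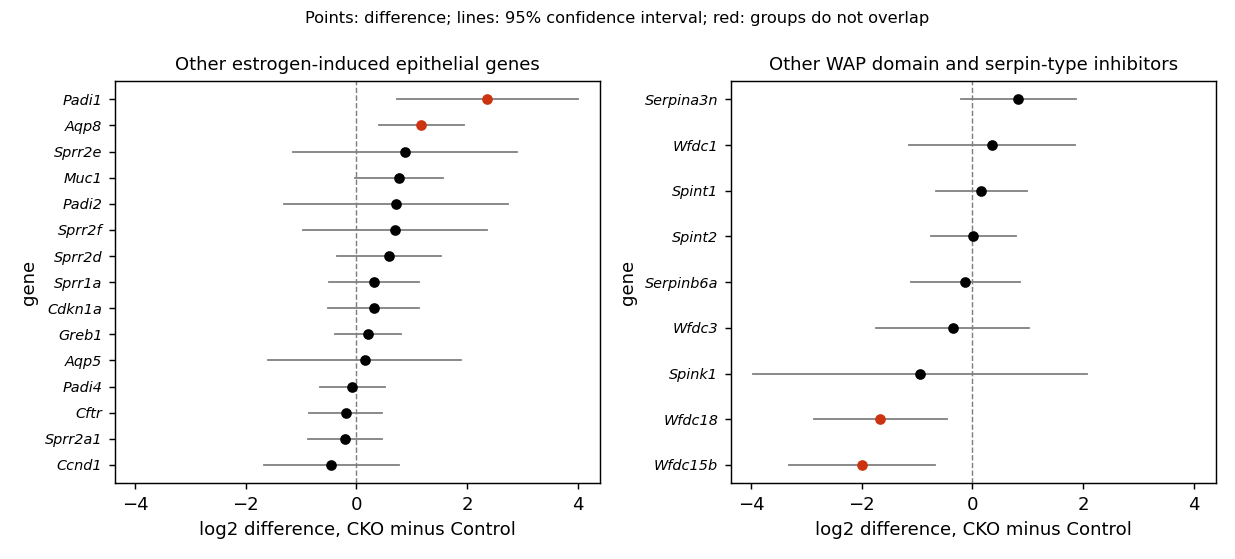
Log2 difference (horizontal axis, CKO minus Control) with its 95% confidence interval for each measured gene (vertical axis). The lists are other estrogen-induced genes (left) and other WAP domain genes and serine protease inhibitors (right). The title of the right panel says serpin-type, but not all of its genes are serpins. Red points mark genes whose groups do not overlap. On the left 11 of 15 genes lie above 0, with Padi1 and Aqp8 in red, and on the right Wfdc15b and Wfdc18 are in red below 0.

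The remaining groups related to the members' roles held no gene past the test. Of 40 other secreted mucosal defence proteins 18 were measured, with 11 higher and 7 lower, including the WAP genes just given and Cxcl1, a neutrophil chemokine, higher without overlap by 0.73 (SE 0.30). Of 23 complement genes around C3, 12 were measured, with 7 higher and 5 lower. Cd59a, which blocks the membrane attack complex, differed by -0.66 (SE 0.24) and Serping1, the C1 inhibitor, by 1.13 (SE 0.46), both without overlap. C2, a protease of the C3 convertase, differed by 1.11 (SE 0.50) with overlap.

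Partners of Pigr, Lcn2 and Ltf were few. Of 10 genes of immunoglobulin transport and receptors for the secreted proteins 5 were measured, with 3 higher and 2 lower. Slc22a17, a lipocalin 2 receptor, was lower without overlap by -0.44 (SE 0.17). Lrp2, the endocytic receptor megalin, differed by -0.39 (SE 0.37), and the sign turned without E (0.049). Its other probes above background on all arrays differed by -0.033 and -0.43, the first of these being the brighter. Ighm, an immunoglobulin heavy chain gene, differed by 0.44 (SE 0.24), near background, and Jchain, which joins the polymeric immunoglobulin that Pigr carries, was at background on all arrays. Of 7 other calcium-activated chloride channel regulators on the array 0 were measured.

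Regulators that can induce Lcn2 and other defence genes were likewise uncalled: of 26 in the NF-kB, interleukin and STAT3 list 20 were measured, with 13 higher and 7 lower. Socs3, a feedback inhibitor of STAT3 signalling, had log2 signals of 9.55, 9.20 and 8.23 in Control and 9.61, 11.26 and 9.94 in CKO, a difference of 1.28 (SE 0.52). Its lowest array was C and its highest E, as for Lcn2. Il6st, the shared receptor subunit gp130, was higher without overlap by 0.80 (SE 0.29). Nfkbiz, an NF-kB cofactor, differed by 0.58 (SE 0.27) with overlap. All differences given for genes outside the 7 members had limma adjusted p-values of 0.976 or 0.977.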

How the data were processed

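RNA of 6 samples was measured on 1 Illumina bead chip. Each deposited scanner table lists, per the file headers, a bead-averaged intensity, a detection p-value and a bead number for every probe. The intensities are not background-subtracted or normalised. The authors' deposited table of processed intensity values was used as an alternative; its ranks followed the raw signal within each array and its median was 6.4 on every array. For their software, nothing is given in the sources used here.

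Raw median intensity was 79.7 to 87.6, probes above background (detection p-value under 0.05) numbered 16620 to 17536, and the median bead number was 39 to 42 per array. The mean correlation of an array with the rest was lowest for CKO E (0.936) and 0.953 to 0.970 for the others. The number of arrays limits the precision.

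Intensities were corrected by normexp with inferred negative controls, offset by 16, quantile-normalised and log2-transformed (neqc, limma 3.58.1, R 4.3.3). Probes above background on at least 3 arrays were kept (17291), and the brightest stood for its gene. Names came from a RefSeq table of GRCm38.p6 by accession (29370 probes), by symbol (6953) or from the file (8958). No coordinates are given other than those of the RefSeq promoter windows, which were matched by symbol for 6 of the 7 members. The groups were tested with lmFit and eBayes, two-sided and Benjamini-Hochberg adjusted across the whole table, with a threshold of 0.05. Exact permutation tests of group differences and of correlations were two-sided (Python 3.11.15). The steps were tested on simulated data.

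Members and lists were chosen with earlier results of these data known. Named were the members, up to 3 genes of smallest p per list, Esr1, Pgr and Bmpr1a, and the 3 genes most like each of the 3 widest-ranging members; Jchain and the cell type markers were named for their detection or level after their values were seen. Alternatives were other background corrections, median scaling, cyclic loess, the deposited values, no or a stricter filter, the mean of probes, array weights, a robust variance trend, and each array left out.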

Additional observations from a re-analysis of the deposited data

How the results depend on the processing

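Members called were 0 in each direction, and genes called lower were 0, under all 16 alternatives. The 2 genes called higher became 1 under median scaling, cyclic loess, the deposited values, normexp lacking control probes, or raw background. They became 0 under the strict filter or no filter, 5 under array weights, and 0 to 1 when any 1 array was left out. Ltf, Lcn2, Slpi, Clca3 and Pigr did not change sign under any alternative, running from -1.57 to -0.80, from 0.42 to 1.87, from -1.74 to -0.54, from -1.37 to -0.38 and from 0.021 to 0.69; Clca3 was not tested under the strict filter. The lowest limma adjusted p of a member was 0.233, for Ltf with array weights. C3 turned to -0.24 with array weights, and with single arrays left out it ran from -0.030 to 0.76, below 0 without C (-0.030) or D (-0.017). Wfdc2 turned to 0.041 with cyclic loess and ran from -0.049 to 0.010 with single arrays left out, above 0 without B. The median r of the member pairs ran from -0.030 (without B) to 0.18 (without E) with single arrays left out and the rest normalised anew. Among the 24 further genes named, 22 held 1 sign in whichever alternatives tested them. Serpina3n was not tested under the strict filter or without D, E or F, and Aqp8, Ighm and Ncoa2 not under the strict filter. With single arrays left out Pgr ran from -0.80 to 0.058 (0.018 without E) and Lrp2 from -0.61 to 0.049. The causes were not tested. Clca3 was not above background on A and E, and Wfdc2 lay near the top of the scale. No paired analysis was possible because the replicate letters are not shared between the groups.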

Other observations

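Among the 18 measured genes of other secreted mucosal defence proteins, some that no rule named varied by array much as Lcn2 did, and others did not. Those that did were chosen after their values were seen. The share of all genes with such an order was not counted. Chil1, a chitinase-like protein, had log2 signals of 7.45, 4.80 and 4.81 on Control arrays A, B and C and 5.42, 11.03 and 5.70 on CKO arrays D, E and F. Hp, the haemoglobin-binding acute-phase protein haptoglobin, had 6.52, 6.47 and 4.57 in Control and 9.97 on CKO E, beside 6.07 on D and 5.06 on F. Sftpd, the mucosal collectin surfactant protein D, had 12.50, 10.16 and 9.13 in Control and 9.64, 14.22 and 9.87 in CKO. Chil1, Hp and Sftpd were highest on E and next highest on A, and Hp and Sftpd had their lowest value on C. In Control, Chil1 was above background on only 1 array and Hp on 2, so their low values are not resolved. Cxcl17 (12.64, 11.92 and 10.74 in Control, 11.78, 13.14 and 12.04 in CKO) was also highest on E, next on A and lowest on C. Lbp was also lowest on C (10.66), but it was nearly level on A (12.15), D (12.11), E (12.15) and F (12.03). Those arrays therefore have no clear order for Lbp, unlike for Lcn2. Saa3, an acute-phase gene of the same list, had its highest value of 5.91 on D and 5.22 on E. It was above background on only 1 Control and 2 CKO arrays, so its order is mostly not resolved. E and A were not the highest arrays for Lyz1 (11.05 on F), Lyz2 (8.53 on F), Cxcl15 (9.15 on B), Cfb (9.72 on B) or Wfdc3 (8.97 on B). The same held for Cxcl1 (7.41 on D), Pglyrp1 (7.46 on C), Wfdc15b (11.40 on C) and Wfdc18 (9.03 on C). All of these were above background on all arrays. Muc4, also highest on C (5.70), was above background on 2 Control arrays and 1 CKO array. Wfdc1 and Defb1 were highest on E (8.36 and 6.95), but next on D (8.17) and on C (5.99). None of the genes named in this section passed limma's adjusted p.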
